A study of Ovis aries with 16 samples.

Results

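The effect of hypoxia on the fetal sheep hippocampus was read over fetuses with and without ketamine together. All 16 of the 16 hippocampus arrays were used, the 9 labelled hypoxia against the 7 labelled normoxia, with ketamine (given or not) as an additive term in the model. The fetuses were late-gestation sheep with indwelling catheters, and each gave 1 one-color array. The ewe breathed gas low in oxygen for 30 min or remained in normoxia for the same time, all fetuses then had 23.5 h of normoxia, and the hippocampus was taken 24 h after the onset of the stimulus. The 3 normoxia control (NC) and 5 hypoxia control (HC) fetuses received no ketamine. The 4 normoxia plus ketamine (NK) and the 4 hypoxia plus ketamine (HK) fetuses received 3 mg/kg of ketamine, an antagonist of NMDA-type glutamate receptors, intravenously ahead of the stimulus. Per the study's methods all ewes had been operated on under isoflurane and were given ampicillin, so every group carried both. The methods also state that nearly all fetuses were twins and that oxygen was assigned by pregnancy. The labels do not tie fetuses to pregnancies, so fetuses of the same oxygen group that shared a ewe were counted as separate samples and the p-values may be too small.

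When oxygen falls, hypoxia-inducible factors escape degradation and switch on genes for glucose uptake, vessel growth and growth factor binding. Injured or inflamed brain tissue also signals through pattern recognition receptors on microglia, the resident macrophages of the brain, and its vessels can display adhesion molecules that capture leukocytes from the blood. The hippocampus is rich in glutamate receptors and in receptors for adrenal steroids, and its pyramidal neurons are known for their sensitivity to low oxygen.

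Levels are given on a log2 scale of spot intensity on which 0 is the 75th percentile of the array, so a negative level is a dimmer spot, and levels of different probes are not compared. A difference is hypoxia minus normoxia on this scale, adjusted for ketamine, and is given ± SE. A gene is called raised or lowered when its unadjusted p in limma's moderated test was under 0.05, the criterion of the study's methods, and the Benjamini-Hochberg adjusted p over all probes tested is given where it matters. Of 15008 probes, 12541 were tested and 1338 of these carried a gene name (10.7%), for 856 genes. A gene is represented by its brightest probe unless stated otherwise.

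The share of spots that the scanner software marked as well above background was 76.7% to 82.6% per array, and arrays correlated with each other at 0.967 to 0.992 over probes. The number of saturated spots was 83 to 96 on the normoxia arrays and 89 to 107 on the hypoxia arrays (exact permutation test, two-sided, p = 0.016), and the p of 5 other array measures lay between 0.13 and 0.86. The arrays lay on 2 slides of 8, with 2 arrays of each group on slide 1. The tissue label was checked against its markers. All 7 tested genes of hippocampal neurons were well above background on all 16 arrays, as were 7 of 8 astrocyte genes, with GFAP, the astrocyte filament protein, at 0.38 to 2.29. The summed neuron markers of HC5 were 39.7% of the normoxia mean, against 83.8% to 117% on the other 15 arrays, and NEUROD1, a transcription factor of dentate granule neurons, was at -5.91 in HC5 and at -1.31 to 2.03 elsewhere. Choroid plexus genes were high in NC2 (151% of the normoxia mean) and NK2 (206%), and reached at most 143% on the other arrays. In whole tissue, fewer cells of a type and less RNA per cell cannot be told apart.

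In the pooled comparison 733 of 12541 probes were raised by hypoxia (5.84%) and 830 were lowered (6.62%), where chance alone would give about 314 in each direction. After adjustment over all probes 8 were raised (0.0638%) and 2 were lowered (0.0159%), with a smallest adjusted p of 0.029. This adjusted count rests on single arrays, as it was 0 without any 1 of NC1, NC2, NC3, NK1, NK2, HK1, HK2 or HK4, and 70 without HK3. The median difference was 0.54 for the raised probes, -0.36 for the lowered probes and -0.02 for all probes tested, so the raised probes moved further. Hypoxia arrays did not overlap with normoxia arrays for 22 raised probes (0.175%) and 12 lowered probes (0.0957%). Of these, 6 raised probes carried a name (both of STAR, both of CXCL8, and those of IGFBP3 and PDXK), and 1 lowered probe did (PTGS1). The dimmer of the 2 CXCL8 probes was tested only through hypoxia arrays. Over the 856 named genes by their brightest probe, 96 were raised (11.2%) and 50 were lowered (5.84%), with a median difference of 0.02. These 2 shares apply beside every count of called genes in a list below.

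Hypoxia was read in the same direction with and without ketamine for nearly all of these probes. HC minus NC and HK minus NK share no arrays. Of the 1563 probes called in the pooled comparison, 1553 had the same sign in both pairs of groups and 10 had opposite signs, although the pooled call itself favors probes that move together. At p under 0.05 in each pair separately, 114 probes were raised in both (0.909%), 46 were lowered in both (0.367%) and 15 moved in opposite directions. The raised probes had a median of 0.63 in HC minus NC and 0.43 in HK minus NK, and the first was the larger for 506 of 733. The lowered probes had medians of -0.41 and -0.29, and HC minus NC was the larger in size for 539 of 830. The difference between the pairs, tested directly, passed p under 0.05 for 431 probes (3.44%) and for 86 of the 1563 called, and no probe passed after adjustment in limma (smallest adjusted p about 1.00). Over all probes tested the differences of the pairs correlated at 0.50. The ketamine term of the model passed p under 0.05 for 55 of the 733 raised probes, 20 of the 830 lowered probes and 265 of all 12541 probes tested. Chance alone would give about 314 probes in each direction at this threshold, so neither the 431 nor the 265 exceeded chance.

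**Figure D1:**
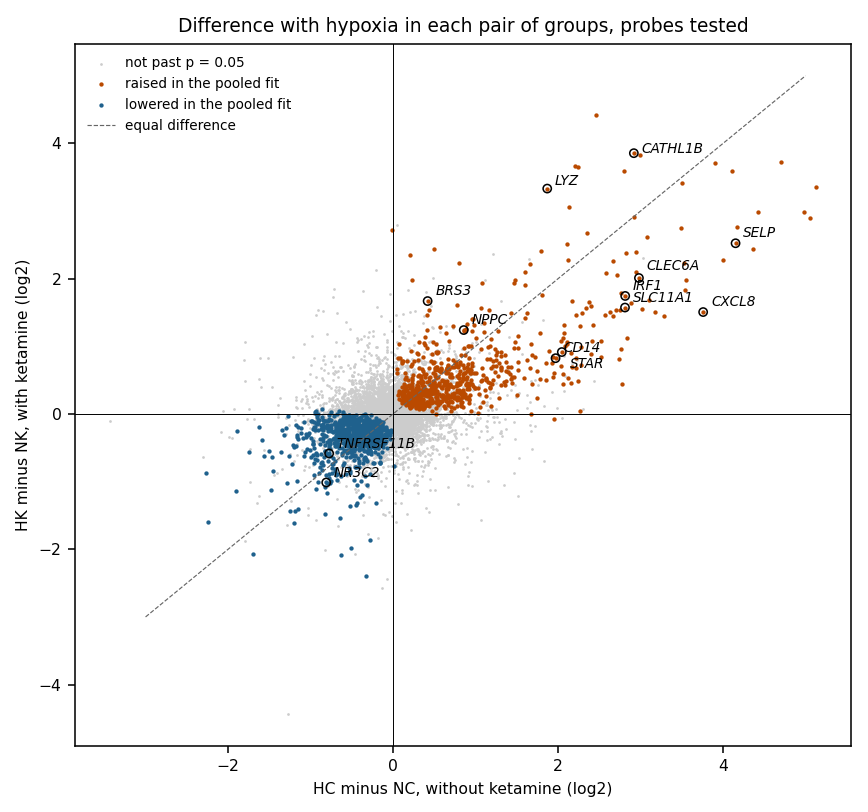
Each point is a probe, with HC minus NC (log2, without ketamine) on the horizontal axis and HK minus NK (log2, with ketamine) on the vertical axis, colored by its call in the pooled comparison (orange, raised, 733 probes; blue, lowered, 830 probes; grey, neither), and circles mark some of the named genes by their brightest probe. Of the called probes 1553 of 1563 lie in the quadrants where both differences have the same sign, which the pooled call itself favors. Most raised probes lie below the dashed line of equal difference.

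The probes are 60 bases long, and the sequences of those that carry the results are given 5′ to 3′ as the array files list them, with no place in a genome because the files list none. The first 30 bases of the 2 STAR probes show that they are the same stretch shifted by 1 base, with the bases shared by both in capitals, so they are not independent measurements:
STAR A_70_P039531: CTACTACAGTAGCATTTTAGTACCAAGAGA
STAR A_70_P039532: gCTACTACAGTAGCATTTTAGTACCAAGAG
The first 30 bases of 3 probes without a gene symbol are shown because they had the smallest p of all unnamed probes raised (the first 2) or lowered (the last), so that others can place them:
A_70_P070451: atttgtgtgggaggtcactctgaggacagt
A_70_P046936: tagtcgtatgttgcatcattaagaagttgt
A_70_P058246: tcttatagtcagcatatactgtgcttagtt
The next are the whole probes of genes with separate roles in the response, a natriuretic peptide, a growth factor binding protein, a transcription factor, an inhibitor of NF-kappaB, the co-receptor for bacterial lipopolysaccharide and subunits of glutamate receptors:
NPPC: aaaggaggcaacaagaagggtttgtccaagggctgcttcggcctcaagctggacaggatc
IGFBP3: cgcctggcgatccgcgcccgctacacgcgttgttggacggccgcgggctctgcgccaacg
IRF1: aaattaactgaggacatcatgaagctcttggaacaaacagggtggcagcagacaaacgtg
NFKBIA: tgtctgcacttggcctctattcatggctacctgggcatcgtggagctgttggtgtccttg
CD14: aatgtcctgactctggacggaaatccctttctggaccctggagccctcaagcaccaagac
GRIA1: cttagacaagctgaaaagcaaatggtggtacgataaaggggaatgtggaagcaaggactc
GRIN1: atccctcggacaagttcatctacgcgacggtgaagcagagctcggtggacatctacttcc
Each of these 7 probes has at least 1 reading frame without a stop codon, and they hold between 45% and 75% G and C, the most in IGFBP3.

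The 3 unnamed probes moved in nearly every fetus. A_70_P070451 lay between 0.15 and 0.54 (median 0.25) in the normoxia arrays and between 0.62 and 1.23 (median 0.95) in the hypoxia arrays, a difference of 0.67 ± 0.09, and it changed alike without (0.65) and with ketamine (0.69). A_70_P046936 was raised by 0.68 ± 0.11, with 8 of 9 hypoxia arrays above all normoxia arrays. A_70_P058246 lay at -1.39 to -1.18 in normoxia and at -1.89 to -1.56 in hypoxia, with no overlap, a difference of -0.40 ± 0.06. The adjusted p of each was 0.029 in limma. A second lowered probe without a symbol, A_70_P071831, lay at -3.53 to -3.03 in normoxia and at -4.14 to -3.54 in hypoxia (adjusted p = 0.035 in limma), and it fell further without ketamine (-0.85) than with it (-0.35, p of the difference of the pairs 0.0062 in limma).

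The named genes with the smallest p were 25, of which 23 were raised and 2 were lowered, as STAR was the only name to pass after adjustment and the others were added in order of p among genes with the same sign in both pairs of groups. Because they were chosen for a small p on these arrays, the values that follow describe them and are no further support. All 25 had the same sign on slide 1 and on slide 2, each had at least 8 of 9 hypoxia arrays beyond the normoxia median, and all 41 of their probes passed p under 0.05. By their brightest probes the adjusted p lay between 0.058 and 0.24 in limma and the two-sided exact permutation p, with labels permuted within ketamine, between 0.00026, the smallest that its 3920 arrangements allow, and 0.017. HC minus NC passed p under 0.05 for 20 of the 25, HK minus NK for 18 and both for 13. HC minus NC was the larger in size for 18, and the difference of the pairs passed p under 0.05 for 2, STAR and MTHFD2. All 25 kept their call with slide as a block, 22 did so within slide 1 and 9 within slide 2. With normexp background correction, which moved the median difference of all probes from -0.02 to 0.19, 13 kept their call, 11 lost it and TNFRSF11B changed sign.

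**Figure D2:**
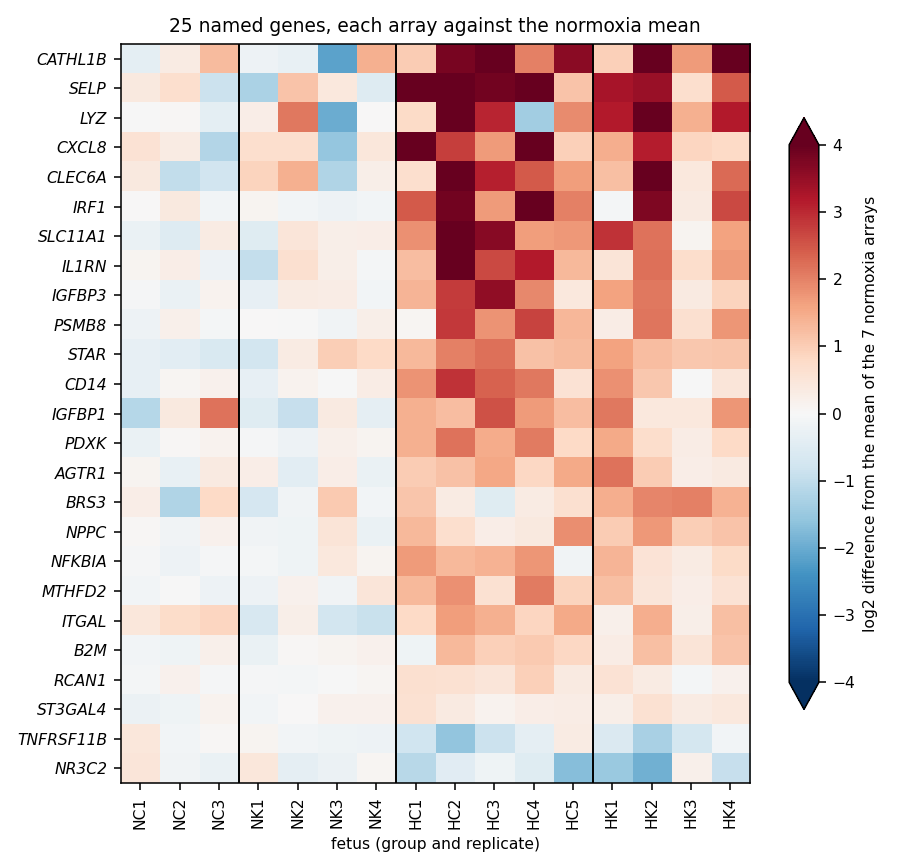
Each row is 1 of the 25 named genes and each column a fetus, and the color gives the log2 level minus the mean of the 7 normoxia arrays (red, higher; blue, lower; the scale ends at 4 on either side). The 9 hypoxia columns differ in strength, with 23 of 25 genes beyond the normoxia range in HC2 and HK2 and 12 of 25 in HK3.

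The fetuses did not respond to the same extent. Of the 25 genes, 18, 23, 21, 20 and 20 lay beyond the range of the normoxia arrays in HC1 to HC5, and 19, 23, 12 and 21 in HK1 to HK4. HK3 had the fewest, and the strongest responses of CXCL8, SELP and IRF1 were in HC4.

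STAR, which carries cholesterol into mitochondria for steroid synthesis, had the smallest p of the named genes. Its brighter probe was at -6.94, -7.03 and -7.19 in NC, at -7.33, -6.27, -5.61 and -5.78 in NK, at -5.29, -4.59, -4.40, -5.43 and -5.33 in HC and at -4.99, -5.37, -5.50 and -5.48 in HK. Every hypoxia array lay above every normoxia array, and NK spread upward toward them. The difference was 1.46 ± 0.27, and it was 2.05 in HC minus NC and 0.92 in HK minus NK (p of the difference of the pairs 0.030 in limma). The other STAR probe gave 1.61 ± 0.26 (adjusted p = 0.029 in limma), 2.28 and 0.99. Both were dim, well above background on 3 of 7 normoxia arrays and all 9 hypoxia arrays. Of 9 tested genes of steroid synthesis and nuclear receptors, STAR was the only member raised and none was lowered, with a median of 0.06. This count is close to the 11.2% raised of all named genes, of which 5.84% were lowered. CYP17A1, a later enzyme of the same route, had a difference of -0.04.

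PDXK, the kinase that activates vitamin B6, lay between -0.40 and 0.06 (median -0.11) in normoxia and between 0.14 and 2.01 (median 1.28) in hypoxia, with no overlap and a difference of 1.20 ± 0.22. It was raised by 1.62 without ketamine and by 0.80 with it. MTHFD2, a mitochondrial enzyme of folate metabolism, rose by 0.98 ± 0.23, to above all normoxia arrays on 7 of 9 hypoxia arrays, and by more without ketamine (1.44) than with it (0.54, p of the difference of the pairs 0.049 in limma). ST3GAL4, a sialyltransferase that helps to build selectin ligands, rose by 0.38 ± 0.09 with 8 of 9 hypoxia arrays above all normoxia arrays. RCAN1, an inhibitor of calcineurin, was at 2.91 to 3.17 in normoxia and at 2.89 to 3.94 in hypoxia, a difference of 0.43 ± 0.11.

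Peptides and receptors of vessel tone and fluid balance were among the 25. NPPC encodes C-type natriuretic peptide, a local relaxant of vessels, and lay at -3.82 to -3.05 (median -3.69) in normoxia and at -3.30 to -1.71 (median -2.55) in hypoxia. Its difference was 1.06 ± 0.22, with 0.86 in HC minus NC and 1.24 in HK minus NK, and its second probe, shifted by 1 base, gave 1.05. AGTR1, the angiotensin II receptor that constricts vessels, lay at -4.71 to -3.91 (median -4.18) in normoxia and at -4.02 to -2.11 (median -3.26) in hypoxia. It rose by 1.07 ± 0.24, by 1.16 without ketamine and by 0.99 with it, and 7 of 9 hypoxia arrays were above all normoxia arrays. EDN1, the vasoconstrictor endothelin, rose by 0.76 ± 0.33, with 5 of 9 hypoxia arrays above and 1 below all normoxia arrays, and its call was lost without any 1 of 9 arrays. BRS3, an orphan receptor of the bombesin family, rose by 1.06 ± 0.34, with 1.67 in HK minus NK and 0.42 in HC minus NC (p of the difference of the pairs 0.067 in limma), and was well above background on 3 of 7 normoxia arrays and 7 of 9 hypoxia arrays. Among 24 tested neuropeptides and their receptors, NPPC, BRS3 and GAL (1.21 ± 0.56, galanin) were raised and NPY2R, a neuropeptide Y receptor, was lowered (-0.99 ± 0.45, but 0.09 with normexp background correction), with a median of 0.10. These counts are close to the 11.2% raised and 5.84% lowered of all named genes. GAL was well above background on no normoxia array and on 3 of 9 hypoxia arrays, which makes it at least 1.03-fold higher. GAL was thus tested only through hypoxia arrays, and its call is no support for the count of raised genes. The call was lost without any 1 of 10 arrays for GAL and of 8 for NPY2R.

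**Figure D3:**
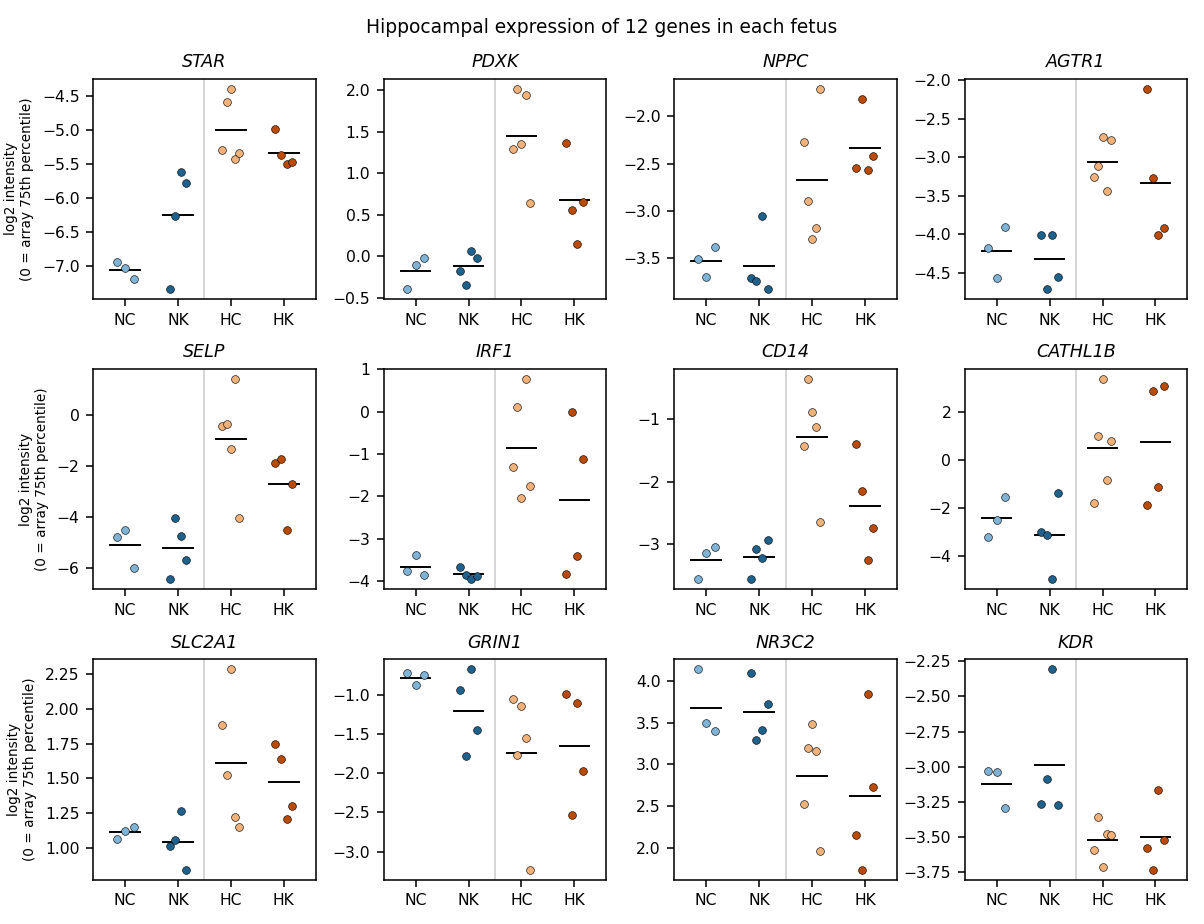
Each panel shows the level of a gene (log2 intensity, 0 = 75th percentile of the array) in every fetus, with 3 points in NC, 5 in HC and 4 each in NK and HK, a line at the group mean, and each panel on its own scale. PDXK and STAR do not overlap between normoxia and hypoxia, SELP, IRF1 and CATHL1B spread widely among the hypoxia fetuses, and GRIN1, NR3C2 and KDR lie lower with hypoxia.

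Genes that hypoxia-inducible factors control moved in part. Of 18 tested genes induced by hypoxia, 5 were raised and 1 was lowered, with a median of 0.18 against 0.02 for all named genes. IGFBP3, which binds insulin-like growth factors, lay at -5.09 to -4.41 (median -4.81) in normoxia and at -4.39 to -1.19 (median -3.13) in hypoxia, with no overlap. It rose by 1.62 ± 0.39, by 2.07 without ketamine and by 1.20 with it. IGFBP1, a related binding protein, rose by 1.36 ± 0.41 on its brightest probe, which was well above background on 1 of 7 normoxia arrays and 7 of 9 hypoxia arrays. Its other 2 probes, which share all but 1 base, had no normoxia array well above background and were thus tested only through hypoxia arrays. With hypoxia the first was at least 1.65-fold higher (measured difference 2.59) and the second at least 1.53-fold higher (measured difference 2.37). None of the other 9 of the 11 tested genes of the insulin-like growth factor axis was called, and the median of the axis was -0.03.

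Glucose carriers rose as well. SLC2A1, the carrier of the blood-brain barrier, lay at 0.84 to 1.26 (median 1.06) in normoxia and at 1.15 to 2.28 (median 1.52) in hypoxia, a difference of 0.46 ± 0.15. SLC2A3, the neuronal carrier, rose by 0.68 ± 0.22 (1.13 without and 0.27 with ketamine, p of the difference of the pairs 0.053 in limma). SLC2A5, a fructose carrier of microglia, rose by 0.81 ± 0.25. Of 24 tested transport genes 4 were raised and none was lowered, and the median was -0.00. This count is not far from the 11.2% raised of all named genes, of which 5.84% were lowered. Neither HIF1A, the oxygen-regulated subunit of the factor (0.05 ± 0.12), nor VEGFA, the vessel growth factor that it induces (0.16 ± 0.22), was called. Among the 9 tested genes of oxygen sensing CITED2, a feedback inhibitor of HIF1A, rose by 0.40 ± 0.13. AHR, the aryl hydrocarbon receptor, fell by 0.41 ± 0.14, nearly all of it without ketamine (-0.76 against -0.09, p of the difference of the pairs 0.010 in limma), although normexp background correction gave 0.51.

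Many microglia and macrophage genes were raised. Of 14 tested, 10 were raised, none was lowered and all 14 had a positive difference, with a median of 0.64 against 0.02 for all named genes. SLC11A1, a metal transporter of phagosomes, lay at -5.80 to -4.81 (median -5.05) in normoxia and at -5.18 to -0.87 (median -3.45) in hypoxia, and rose by 2.17 ± 0.48. CD14, the co-receptor for lipopolysaccharide, lay at -3.57 to -2.95 (median -3.15) and at -3.26 to -0.35 (median -1.43), and rose by 1.38 ± 0.34. For each, 8 of 9 hypoxia arrays were above all normoxia arrays. CLEC6A, a lectin that recognises fungi, rose by 2.48 ± 0.72 and by 3.11 ± 0.68 on its other probe, and it was well above background on 1 of 7 normoxia and 8 of 9 hypoxia arrays. LYZ, which encodes lysozyme, rose by 2.62 ± 0.83, from a median of -6.57 to -3.53, with 5 of 9 hypoxia arrays above all normoxia arrays. Smaller differences were those of CD86 (0.69 ± 0.24, a co-stimulator of T cells), ITGAM (0.60 ± 0.25, an integrin, but 0.14 and not called on its other probe), CYBA (0.50 ± 0.19, a subunit of NADPH oxidase), FCER1G (0.50 ± 0.19, an Fc receptor chain) and CTSS (0.48 ± 0.19, cathepsin S). CLEC4E, a lectin related to CLEC6A, was well above background on no normoxia array and on 3 of 9 hypoxia arrays, which makes it at least 1.2-fold higher (measured difference 1.83 ± 0.77). CLEC4E was thus tested only through hypoxia arrays, and its call is no support for the count of 10.

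The summed level of the 14 microglia and macrophage genes was 86.0% to 111% of the normoxia mean on the normoxia arrays and 103% to 264% (median 155%) on the hypoxia arrays, above all normoxia arrays in 7 of 9. HC1 and HK3 were the 2 that overlapped, at 103% and 105%, and HC2 was the highest. Without NC1 the count of raised genes in this list was 6 of 14, against 10 with it, and it was 6 on the authors' deposited values and 6 with normexp background correction. By pair, 7 passed p under 0.05 in HC minus NC and 2 in HK minus NK, and the difference of the pairs passed for 1.

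Some genes of bacterial recognition were raised as well, and CD14 is counted in both lists. Of 12 tested genes of Toll-like receptor (TLR) signaling, 5 were raised, CD14 among them, and 1 was lowered. The shares over all named genes were 11.2% and 5.84%, and the median of the 12 was 0.26. By pair, 6 were raised in HC minus NC and 1 in HK minus NK, and 9 of the 12 had the same sign in both pairs. TLR2 lay at -4.15 to -3.13 (median -3.68) in normoxia and at -3.47 to -1.63 (median -2.63) in hypoxia, and TLR4 at -5.54 to -4.86 (median -5.30) and at -5.23 to -3.64 (median -4.33). For both receptors 6 of 9 hypoxia arrays were above all normoxia arrays, with differences of 0.81 ± 0.23 and 0.77 ± 0.22. Both were larger without ketamine (1.20 and 1.07) than with it (0.45 and 0.50), and the difference of the pairs did not pass p under 0.05 for either. TLR6 (0.35 ± 0.16) and IKBKB (0.22 ± 0.10, a kinase that releases NF-kappaB) were raised by less, and their calls were lost without any 1 of 10 and of 7 arrays. IKBKB was at -0.03 within slide 2. MYD88, the adaptor of most of these receptors, had a difference of 0.18 and was not called, while its dimmer probe was (0.51 ± 0.19). TRAF3, a signaling adaptor, fell by 0.61 without ketamine and by 0.01 with it (pooled -0.30 ± 0.12, p of the difference of the pairs 0.0056 in limma), although normexp background correction gave a pooled 0.08. The count of raised genes was 3 without HK2, 2 with normexp background correction and 0 within slide 2.

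NFKBIA, which holds NF-kappaB in the cytoplasm and is itself induced by it, lay at 0.51 to 1.13 (median 0.65) in normoxia and at 0.58 to 2.47 (median 2.01) in hypoxia, and rose by 0.98 ± 0.25. HC5 was the low hypoxia array. Of 20 tested cytokines and their antagonists, 5 were raised and 2 were lowered, beside 11.2% and 5.84% of all named genes. The median of the 20 was 0.19. By pair, 5 were raised and 0 lowered in HC minus NC, and 1 was raised and 3 were lowered in HK minus NK. The sign was the same in both pairs for 13 of the 20. IL1RN, the antagonist of the interleukin-1 receptor, rose by 1.85 ± 0.43, with 8 of 9 hypoxia arrays above all normoxia arrays, and was well above background on 1 of 7 normoxia and 7 of 9 hypoxia arrays. IL1B, its inflammatory counterpart, rose by 0.77 ± 0.25 (1.17 without and 0.39 with ketamine), and TNF by 1.34 ± 0.52 (2.24 and 0.49, p of the difference of the pairs 0.094 in limma). IL10, an inhibitor of inflammation, rose by 0.60 ± 0.26 and SPP1, osteopontin, by 0.28 ± 0.12, and their calls were lost without any 1 of 8 and of 9 arrays. IL12A fell by 0.89 ± 0.39 and MIF, macrophage migration inhibitory factor, by 0.21 ± 0.08. IL6 had a difference of -0.53 and was not called. With normexp background correction none of the 20 was raised.

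The 2 raised chemokine genes had larger differences than any of these 20. CXCL10, which draws T cells and is induced by interferons, lay between -4.50 and -1.13 (median -2.64) in normoxia and between -3.81 and 5.34 (median 2.00) in hypoxia, a difference of 4.20 ± 1.11 with 8 of 9 hypoxia arrays above all normoxia arrays and HK1 inside their range. Within slide 1 alone the CXCL10 difference was 3.13 and was not called, and within slide 2 it was 5.55. CXCL8, which draws neutrophils, lay between -7.50 and -5.30 (median -5.53) in normoxia and from -5.17 upward (median -4.28) in hypoxia on its brighter probe, with no overlap and a difference of 2.60 ± 0.85. HC1 and HC4 were far above the other hypoxia arrays. The dimmer CXCL8 probe was not well above background on any normoxia array and was on 8 of 9 hypoxia arrays, which makes it at least 5.82-fold higher (measured difference 3.94 ± 0.87). This probe was thus tested only through hypoxia arrays. The other 5 of the 7 tested chemokines and receptors were not called, and the median of the 7 was 0.03.

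Some genes of the interferon response and of antigen presentation were raised. All 8 tested interferon response genes had a positive difference and 5 were raised and 3 were not called, with a median of 0.94, and 5 were raised in HC minus NC and 2 in HK minus NK. IRF1, a transcription factor of this response, lay between -3.96 and -3.38 (median -3.86) in normoxia and between -3.83 and 0.76 (median -1.31) in hypoxia, and rose by 2.26 ± 0.54. HK1 and HK3, at -3.83 and -3.42, were the 2 hypoxia arrays within the normoxia range. PSMB8, a subunit of the immunoproteasome, rose by 1.48 ± 0.37, PSME2, its activator, by 0.60 ± 0.18, and IRF2 by 0.36 ± 0.13. MX2 and ISG15 had differences of 1.30 and 1.27 and were not called. Of 7 tested genes of antigen presentation, 3 were raised and 4 were not called, with a median of 0.69, and 1 was raised in HC minus NC and 2 in HK minus NK. B2M, the light chain of MHC class I, lay at 4.02 to 4.49 (median 4.33) in normoxia and at 4.10 to 5.59 (median 5.23) in hypoxia, with 8 of 9 hypoxia arrays above all normoxia arrays, and rose by 0.79 ± 0.19. It changed alike without (0.81) and with ketamine (0.77). CD1D, which presents lipids, rose by 0.39 ± 0.10.

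**Figure D4:**
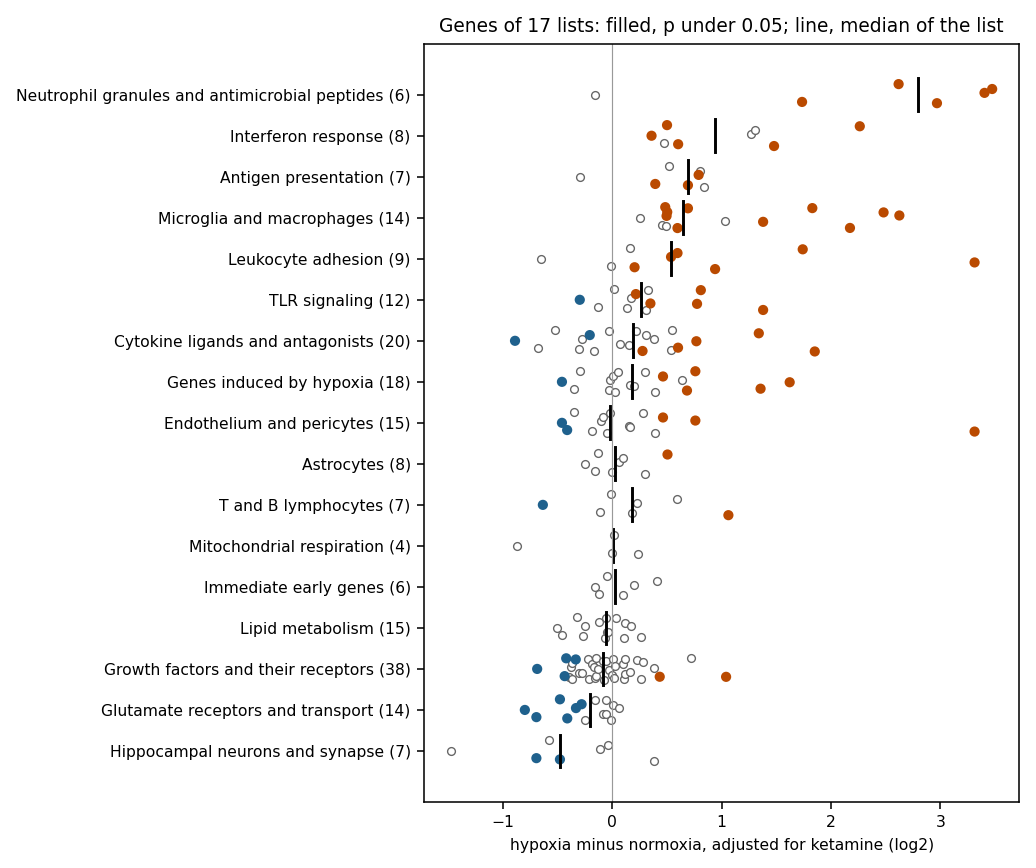
Each circle is a gene of 1 of 17 lists, by its brightest probe, placed by its hypoxia minus normoxia difference adjusted for ketamine (log2), filled orange or blue where p was under 0.05 and raised or lowered, and a black line marks the median of the list, with the number of genes tested in parentheses. The medians of the first 5 lists lie to the right of 0, at 0.54 to 2.79, although some of these lists hold genes below 0. The T and B lymphocyte list has a median of 0.18, with 3 of 7 genes below 0. The glutamate and neuron lists have medians of -0.20 and -0.48, with 2 of 14 and 1 of 7 genes above 0.

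Adhesion of leukocytes to vessels was the next group, with 6 of 9 tested genes raised, none lowered and a median of 0.54. By pair, 3 were raised in HC minus NC and 2 in HK minus NK. SELP, the selectin that platelets and activated endothelium display, lay between -6.46 and -4.06 (median -4.79) in normoxia and between -4.53 and 1.39 (median -1.73) in hypoxia. It rose by 3.31 ± 0.69, by 4.15 without ketamine and by 2.52 with it, and 8 of 9 hypoxia arrays were above all normoxia arrays. ICAM1, the endothelial ligand of leukocyte integrins, rose by 1.74 ± 0.53 (2.74 without and 0.81 with ketamine, p of the difference of the pairs 0.065 in limma). The integrin chains ITGAL (0.94 ± 0.24), ITGB2 (0.54 ± 0.21) and ITGB1 (0.20 ± 0.08) also rose, and ITGAL, part of the leukocyte receptor for ICAM1, was well above background on no normoxia array and on 3 of 9 hypoxia arrays. ITGAL was thus tested only through hypoxia arrays, and its call is no support for the count of 6. The count was 3 without NC1 or without HK2, and 2 on the authors' deposited values. C5AR1, the receptor for a complement fragment that draws neutrophils, rose by 0.54 ± 0.15 with 8 of 9 hypoxia arrays above all normoxia arrays. Of these, HK3 (-1.360) and HK4 (-1.352) were barely above the highest normoxia array (-1.363), and on the dimmer C5AR1 probe both lay within the normoxia range. SAA3, an acute phase protein, rose by 3.68 ± 1.04 with 3 of 7 normoxia arrays and 9 of 9 hypoxia arrays well above background.

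Neutrophil granule and antimicrobial peptide genes had the largest median difference of the lists with at least 3 tested genes, 2.79 over 6, of which 5 were raised and none was lowered. CATHL1B, a cathelicidin peptide, lay between -4.97 and -1.40 (median -3.02) in normoxia and between -1.89 and 3.35 (median 0.78) in hypoxia, a difference of 3.40 ± 0.87. CATHL3 (3.47 ± 0.91), BAC5 (2.97 ± 0.90) and SC5 (2.62 ± 0.81), other cathelicidins, and LTF (1.73 ± 0.48), lactoferrin, rose as well. All 5 were well above background on all 16 arrays. The 4 cathelicidins are members of 1 family, and the longest run of bases that the probes of any pair of them shared was 7 (BAC5 and SC5) to 12 (CATHL3 and SC5) of 60. The differences without ketamine were 2.92, 2.46, 2.24, 2.14 and 1.47 for CATHL1B, CATHL3, BAC5, SC5 and LTF, and with ketamine they were 3.86, 4.42, 3.65, 3.07 and 1.98. Of these, 5 passed p under 0.05 in HK minus NK and 1 in HC minus NC, and the difference of the pairs passed for none. The remaining gene of the list, PTX3, was not called (-0.16).

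The summed level of the 6 neutrophil genes was 52.6% to 154% of the normoxia mean on the normoxia arrays and 118% to 2892% (median 462%) on the hypoxia arrays. HC3 (2892%), HK4 (2746%) and HK2 (2338%) were far above the rest, and HC1 (150%) and HK1 (118%) lay within the normoxia range. Whether these sums moved with the raised genes above, and their part in those results, was not tested. The number of genes beyond the normoxia range was 18 and 19 of 25 in HC1 and HK1, the hypoxia arrays with the lowest neutrophil sums. It was 12 in HK3, which had the next lowest sum (170%), and 20 in HC4 (219%) and HC5 (462%). In HC2 (682%) and HK2 it was 23, and in HC3 and HK4 it was 21. The T and B lymphocyte sums overlapped, at 83.3% to 122% in normoxia and 70.2% to 136% in hypoxia, and of 7 tested genes CD5, a T cell surface protein, rose (1.06 ± 0.32) and CTLA4, an inhibitory receptor of T cells, fell (-0.63 ± 0.23, but 0.54 with normexp background correction). Over all named genes 11.2% were raised and 5.84% lowered. Red cell sums were 60.1% to 145% and 43.6% to 245%. HBB, a hemoglobin chain, had a difference of 0.19 ± 0.30, while AHSP, the chaperone of hemoglobin in red cell precursors, rose by 1.77 ± 0.50 with 8 of 9 hypoxia arrays above all normoxia arrays. HC1 was at -2.90 on this AHSP probe and at -5.55, within the normoxia range, on the other.

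Endothelial genes moved both ways. Of 15 tested genes of endothelium and pericytes, SELP, SLC2A1 and EDN1 were raised and KDR and TEK were lowered, with a median of -0.02. Over all named genes 11.2% were raised and 5.84% lowered. KDR, the main receptor for VEGFA, lay between -3.29 and -2.31 (median -3.09) in normoxia and between -3.73 and -3.16 (median -3.52) in hypoxia, with 8 of 9 hypoxia arrays below all normoxia arrays, and its other 3 probes gave -0.48, -0.41 and -0.15, the last not called. KDR fell by 0.46 ± 0.13 (-0.40 without and -0.51 with ketamine) and TEK, the angiopoietin receptor, by 0.41 ± 0.14, but normexp background correction gave 0.18 and 0.42. The summed level of the list was 95.0% to 108% of the normoxia mean in normoxia and 101% to 131% in hypoxia. GJA1, a gap junction protein, was the only raised gene of 8 tested astrocyte genes (0.50 ± 0.17), and GFAP had a difference of 0.29 ± 0.22.

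Genes of glutamate transmission were lowered where they were called. Of 14 tested glutamate receptor and transport genes, 6 were lowered and none was raised, beside 5.84% and 11.2% of all named genes. The median of the 14 was -0.20. By pair, 4 were lowered and none was raised in HC minus NC, 1 was lowered and 1 was raised in HK minus NK, 7 of the 14 had the same sign in both pairs, and the difference of the pairs passed p under 0.05 for 2. GRIA1, a subunit of AMPA receptors, lay between -0.03 and 0.57 (median 0.37) in normoxia and between -0.99 and 0.46 (median -0.24) in hypoxia, and 6 of 9 hypoxia arrays were below all normoxia arrays. Its difference was -0.48 ± 0.18, with -0.65 without and -0.31 with ketamine. The subunits GRIA3 (-0.33 ± 0.15) and GRIA2 (-0.28 ± 0.12) fell by less. GRIN1, the obligate subunit of NMDA receptors, which ketamine blocks, lay between -1.78 and -0.68 (median -0.87) in normoxia and between -3.23 and -0.99 (median -1.55) in hypoxia, a difference of -0.69 ± 0.32, and HC5 was the lowest array.

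SLC1A1, the neuronal glutamate transporter, fell by 0.41 ± 0.14, but normexp background correction gave 0.28. The GRIN1 difference was not called with slide as a block (-0.69), and its exact permutation p was 0.054. Leaving out HC5, whose neuron markers were low, gave 5 lowered genes of 14 and a GRIN1 difference of -0.51, which passed p under 0.05. The GRIN1 call was lost without any 1 of 9 other arrays (NC1, NC2, NC3, NK1, NK3, HC2, HC4, HK2 or HK4), that of GRIA3 without any 1 of 9 and that of GRIA2 without any 1 of 5. Leaving out NC1, NK1, HK2 or HK4 gave a lowest count of 3, normexp background correction gave 1, and none was lowered within slide 2. The 2 lowered genes of the 7 tested neuron genes were GRIA1 and GRIN1, and NEUROD1 (-1.47 ± 0.90) and NEFH, a neurofilament chain (-0.58 ± 0.28), were not called. The summed neuron markers were 85.5% to 117% of the normoxia mean in normoxia and 39.7% to 116% in hypoxia, with a hypoxia median of 106%.

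**Figure D5:**
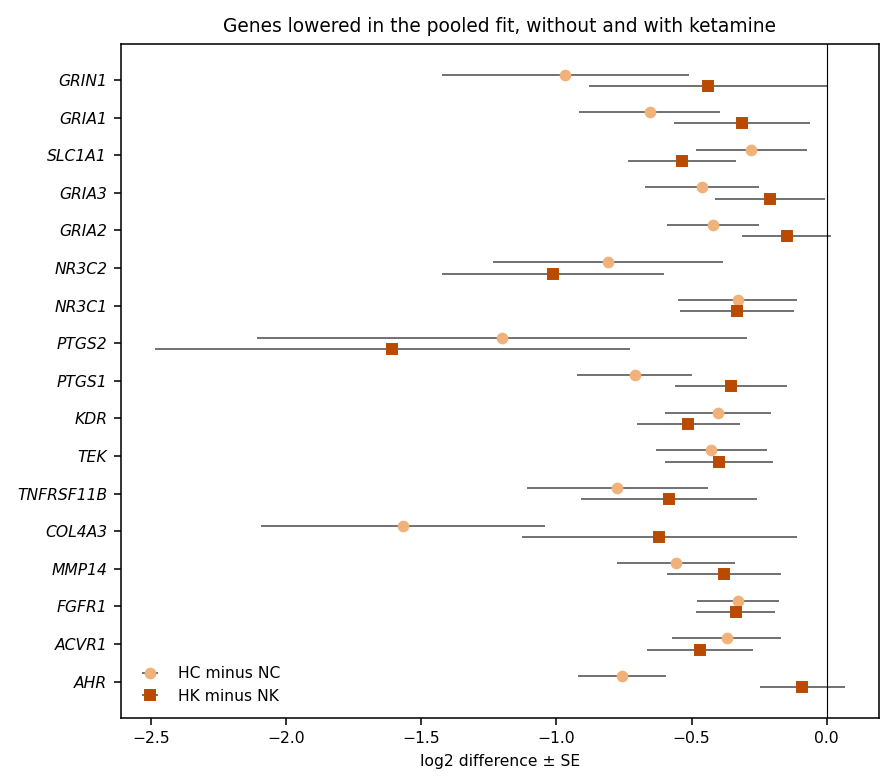
For 17 genes lowered in the pooled comparison, the difference with hypoxia is plotted on the horizontal axis (log2) without ketamine (circles, HC minus NC) and with ketamine (squares, HK minus NK), and lines show the SE. All symbols lie below 0, those of AHR lie apart at -0.76 and -0.09, and with normexp background correction the pooled difference of 9 of these genes is above 0.

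The receptors for adrenal steroids were both lowered. NR3C2, the mineralocorticoid receptor, lay between 3.29 and 4.14 (median 3.50) in normoxia and between 1.74 and 3.84 (median 2.73) in hypoxia, with 7 of 9 hypoxia arrays below all normoxia arrays. It fell by 0.91 ± 0.29, and its second, separate probe gave -0.92 ± 0.24. NR3C1, the glucocorticoid receptor, fell by 0.33 ± 0.15, by 0.33 in each pair, but normexp background correction gave 0.34 and the call was lost without any 1 of 8 arrays. CRHBP, which binds the stress hormone CRH, rose by 0.61 ± 0.21, and the median of the 11 tested stress axis genes was 0.09.

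PTGS1 and PTGS2 are the cyclooxygenases, which make prostaglandins. PTGS1 lay between -0.38 and 0.30 (median -0.25) in normoxia and between -1.27 and -0.38 (median -0.61) in hypoxia, with every hypoxia array below every normoxia array, and fell by 0.53 ± 0.15. PTGS2, the inducible enzyme, lay between 2.22 and 3.31 (median 2.96) in normoxia and between -1.83 and 3.52 (median 1.29) in hypoxia, a difference of -1.41 ± 0.61, with 5 of 9 hypoxia arrays below and 1 above all normoxia arrays. The PTGS2 call was lost without any 1 of 8 arrays (NC1, NC2, NK1, NK4, HC1, HK1, HK2 or HK4). The other 7 of the 9 tested genes of this route were not called. TNFRSF11B, the decoy receptor osteoprotegerin, fell by 0.68 ± 0.23, with 7 of 9 hypoxia arrays below all normoxia arrays, and its other probe gave -0.88 ± 0.21, but normexp background correction gave 0.32 for the first.

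Growth factor and matrix genes moved little as groups. Of 38 tested growth factors and receptors 2 were raised and 4 were lowered, with a median of -0.08. CCN2, a matrix-bound growth factor, rose by 1.04 ± 0.38, from a median of -0.66 in normoxia to 0.78 in hypoxia, and FGF2 by 0.43 ± 0.20, a call lost without any 1 of 10 arrays, and for both 1 hypoxia array was below all normoxia arrays. ACVR1, a receptor of bone morphogenetic proteins, fell by 0.42 ± 0.14 and FGFR1, a receptor of FGF2, by 0.33 ± 0.10, although normexp background correction gave 0.15 for FGFR1. Of 13 tested genes of matrix proteolysis 2 were raised and 2 were lowered, beside 11.2% raised and 5.84% lowered of all named genes. PLAUR, the receptor of urokinase, rose by 0.80 ± 0.30, PLAU, urokinase itself, fell by 0.35 ± 0.14, and MMP14, a membrane metalloproteinase, fell by 0.47 ± 0.15. The other MMP14 probes gave -1.51, -0.32 and 0.23, of which the last 2 were not called. COL4A3, a basement membrane collagen, fell by 1.08 ± 0.37. With normexp background correction MMP14 was at 0.48, COL4A3 at 0.36 and PLAU at 0.04.

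Regulators of survival and division gave small differences. BCL2L1 and MCL1, inhibitors of apoptosis, rose by 0.28 ± 0.10 and 0.39 ± 0.16 and were the only called genes of 8 tested. CCND2, a cyclin that drives cell division, fell by 0.54 ± 0.21 and CDKN1B, an inhibitor of division, rose by 0.33 ± 0.14, with 11 genes of the cell cycle tested. Of 8 tested cytokine receptors, IL2RA (0.80 ± 0.28) and IL13RA1 (0.47 ± 0.20) were raised and TNFRSF11B was lowered. The shares over all named genes were 11.2% raised and 5.84% lowered. By brightest probe, none was called of 6 tested immediate early genes, 15 of lipid metabolism and 9 of WNT and developmental patterning. The same held for 7 of choroid plexus, 5 of antioxidant defense and 4 of mitochondrial respiration. The dimmer probe of EGR1, an immediate early gene, lay lower in most hypoxia arrays, at -6.51 to -4.92 against -5.56 to -4.87 in normoxia.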

How the data were processed

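RNA of the hippocampus of 16 fetal sheep (RIN 7.7 to 9.2 per the labels) was hybridized to one-color 15008-probe Agilent ovine arrays, 1 array per fetus. Per the file headers, the deposited intensity values were made with Agilent Feature Extraction 10.1.1.1, which subtracted background, detrended each array and put surrogate values near background, with no normalization between arrays. The authors also deposited log2 values, whose distribution is shared by all arrays and whose normalization is not given in the sources used here, and these served as an alternative. The submitters' processing notes name limma and R 2.15.1.

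Here log2 of the processed intensity minus the 75th percentile of each array was averaged over spots of a probe, without control and outlier spots, which left 88 missing values among the tested probes. Probes had to exceed background clearly (the scanner's own call) in 3 or more of the 16 fetuses and were fitted with limma 3.58.1 in R 4.3.3, with oxygen and ketamine as additive terms, or with 4 groups for the separate pairs and their difference. Groups came from the sample titles. Names came from the array files and a RefSeq gene table (assembly ARS-UI_Ramb_v3.0, names only), which gave 1647 probes a symbol, and 9 probes whose sources disagreed were left unnamed. The fits were tested on simulated data. The number of arrays limits the precision.

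Named genes were those with adjusted p under 0.05, then those with the smallest p and the same sign in both pairs, up to 25, plus the members of each gene list with the smallest p or on which a result turns and 2 unnamed probes in each direction. Members and lists were chosen with earlier results of these data known. Sums of markers are linear levels as a percent of the normoxia mean. Exact permutation tests were two-sided and permuted oxygen within ketamine. Alternatives were the background correction, the scaling, the filter on dim probes, the authors' values, slide, array row or replicate number as terms, ketamine left out, array weights, the prior on the spread, 1 probe or the mean per gene, and each array left out. No columns of other samples were present. Some genes counted in the lists are not reported here by name.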

Additional observations from a re-analysis of the deposited data

Results flagged for a closer look

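Among 125 combinations of a gene and a group of fetuses, 3 held a fetus far from the rest of its group, where chance picks out about 1 in 20. The groups were NK, HC and HK (4 or 5 fetuses), all normoxia fetuses (7) and all hypoxia fetuses (9). NPPC was at -3.0468 in NK3, while the nearest NK fetus was at -3.71. The brighter CXCL8 probe was at -7.5021 in NK3, with the nearest NK fetus at -5.53. NFKBIA was at 0.5847 in HC5, with the nearest HC fetus at 2.01. The last is the array with the low neuron markers.

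The hypoxia difference with ketamine minus that without it passed an unadjusted p under 0.05 in limma for 5 of the genes described, and none passed after adjustment. It was -1.1299 for STAR, -0.8995 for MTHFD2 and -1.0531 for TPSB2, a mast cell tryptase, all raised more without ketamine. It was 0.6032 for TRAF3 and 0.6673 for AHR, both lowered more without ketamine.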

How the results depend on the processing

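The pooled counts of 733 raised and 830 lowered probes depended most on the background correction and on the number of arrays. Normexp background correction gave 245 and 192, slide 2 alone gave 330 and 304, and a random block for the replicate number, with a correlation of 0.34, gave 540 lowered. Leaving out 1 array at a time gave 578 to 799 raised and 583 to 1061 lowered. The 10 probes with adjusted p under 0.05 became 0 with normexp, with slide as a block, with slide and array row as terms and with the random replicate block. They became 1 on the authors' values and within slide 2, 4 within slide 1, and 2 with no moderation of the spread. They became 18 and 19 with the filters on all 16 and on at least 8 arrays, 22 with ketamine left out, 26 with a fixed replicate block and 79 with array weights. Leaving out 1 array gave 0 (NC1, NC2, NC3, NK1, NK2, HK1, HK2 or HK4) to 70 (HK3).

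The 114 probes raised in both pairs became 19 with normexp and 64 on the authors' values, and 66 to 149 with 1 array left out. The 46 lowered in both became 5 with normexp, 83 with the fixed replicate block and 73 with array weights, and 24 to 76 with 1 array left out. The 431 probes whose pairs differed became 98 with normexp, 666 with the fixed and 812 with the random replicate block, and 323 to 656 with 1 array left out. The 96 raised and 50 lowered named genes became 42 and 13 with normexp and 33 and 21 within slide 2. Whether the numbers of the replicates pair the fetuses was not tested. Same-numbered arrays of the same oxygen group correlated at 0.07 to 0.40, all above 0. Most pairs with different numbers correlated below 0, with a range of -0.33 to 0.23. As exceptions, NC3 correlated better with NK4 (0.23) than with NK3 (0.21), and HC4 better with HK3 (0.15) than with HK4 (0.12).

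All 25 named genes kept their call with any 1 array left out and under every setting that fitted them other than normexp (13 kept), the authors' values (20), slide 1 (22) and slide 2 (9). Of 70 other genes called in the text, 42 kept their call with every array left out in turn, 25 with normexp, 50 on the authors' values, 36 within slide 1 and 9 within slide 2. Beside those named in the report, calls were lost without any 1 of 1 to 6 arrays for CCND2, CDKN1B, CLEC4E, CTSS, CYBA, IL12A, IL13RA1, ITGAM, ITGB1, ITGB2, MCL1, PLAU, PLAUR, TNF and TRAF3. Signs turned with normexp for TNFRSF11B (0.32), TRAF3 (0.077), KDR (0.18), AHR (0.51), NR3C1 (0.34), SLC1A1 (0.28), TEK (0.42), FGFR1 (0.15), COL4A3 (0.36), MMP14 (0.48), PLAU (0.037), CTLA4 (0.54) and NPY2R (0.095), and within slide 2 for IKBKB (-0.032). The cause was not tested. The precision is lowest for dim probes. The share of raised probes among calls was 46.9% and 56.1% with normexp.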

Other observations

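Of 4 genes known from mast cells, picked after their values were seen and given with no test of the group, 3 were raised and KIT was not called. KIT, the stem cell factor receptor, had differences of -0.38 ± 0.29 and -0.65 ± 0.44 on its 2 probes. TPSB2, a tryptase of mast cell granules, rose by 0.74 ± 0.26 on its brighter probe, with 6 of 9 hypoxia arrays above all normoxia arrays, and its other probe (0.39 ± 0.42) was not called. FCER1A, a chain of the receptor for immunoglobulin E, was well above background on no normoxia array and on 5 of 9 hypoxia arrays, with a measured difference of 1.54 ± 0.57. It was thus tested only through hypoxia arrays. MCP-3, a mast cell protease by its array name, had a median of -5.16 in normoxia and of -2.55 in hypoxia, where 5 of 9 arrays were above all normoxia arrays, a difference of 1.68 ± 0.52. The part of mast cells in these results was not tested.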
